A study of Arabidopsis thaliana with 4 samples.

Results

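Ethylene perception and signalling was followed through 10 Arabidopsis thaliana genes among the 20411 genes with a usable probe on the array. They were chosen by locus identifier: the ethylene receptors ETR1 (AT1G66340), ERS1 (AT2G40940), ETR2 (AT3G23150), ERS2 (AT1G04310) and EIN4 (AT3G04580), the kinase CTR1 (AT5G03730), the membrane protein EIN2 (AT5G03280), the transcription factor EIN3 (AT3G20770), and the F-box proteins EBF1 (AT2G25490) and EBF2 (AT5G25350). All 10 had at least 1 probe kept and were tested, with 17 of their 19 probes kept. Whole seedlings of the Col-0 ecotype, 14 d old, came from short days (8 h light, 16 h dark, 22 °C) and were laid on paper soaked in 300 mM NaCl. The labels also give 3 d of imbibition at 4 °C and a medium with 0.7% agar and 1.5% sucrose for every array. RNA taken after 2 h (2 arrays) or 5 h (2 arrays) carried the dye Cy5, and RNA of untreated seedlings of the same ecotype and age, written 0 h, carried Cy3 on every array. The series' design text gives 2 biological replicates per salt time. The 0 h RNA has no replicate number and was counted as 1 control sample. All groups were wild type. No seedlings moved to paper without salt were analysed here, so salt, the transfer and the time of day cannot be told apart.

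Ethylene receptors sit in the endoplasmic reticulum membrane and signal while no ethylene is bound. In that state they hold the kinase CTR1 active, which phosphorylates EIN2 and keeps it inactive. When ethylene binds, a fragment of EIN2 is released. Part of it reaches the nucleus, and in the cytoplasm it acts on the messages of EBF1 and EBF2. These encode the F-box proteins that mark EIN3 for degradation. EIN3 then builds up and switches on response genes. The receptors therefore repress the pathway, EIN2 and EIN3 carry it forward, and EBF1 and EBF2 limit it. These steps are largely controlled at the protein level, and the arrays measured only messenger RNA.

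Median spot signals were 252 to 282 in Cy3 and 342 to 372 in Cy5 over backgrounds of 33 to 54, and each channel of each array had 70.5% to 72.4% of its spots well above background. Replicate arrays differed by 0.0953 at 2 h and 0.0732 at 5 h across genes (SD from the median absolute deviation, log2). Of 2 genes known to respond to salt and abscisic acid, RD29A rose by 2.13 ± 0.16 at 2 h and 3.19 ± 0.16 at 5 h (log2, limma adjusted p = 6.65e-06 and 3.74e-07), while RAB18 was lower at 2 h (-0.64 ± 0.04, adjusted p = 1.77e-06) and higher at 5 h (2.53 ± 0.04, adjusted p = 5.47e-10). Shoot markers (4 of 4) and root markers (6 of 6) were well above background at 0 h on all 4 arrays, in RNA labelled as whole seedling. Of the 4 shoot markers 1 was called higher and 1 lower at 2 h, and 1 higher and 3 lower at 5 h. Of the 6 root markers 1 was called higher and 5 lower at 2 h, and 2 higher and 4 lower at 5 h. These counts stand beside 41.4% of all genes called higher and 40.5% lower at 2 h, and 44.1% and 43.7% at 5 h. PYK10 alone made up 93.2% to 94.2% of the summed 0 h signal of the root markers, and its processed signal was 126640 to 134371 at 0 h against 77148 to 84979 with salt on the 2 h arrays, and 149082 to 186358 against 71305 to 83501 on the 5 h arrays. The other 5 root markers summed to 7863 to 8476 against 6069 to 6205 on the 2 h arrays and 10899 to 11596 against 7000 to 8153 on the 5 h arrays, although IRT1 among them rose (2.04 ± 0.04 at 2 h and 1.55 ± 0.04 at 5 h). Over the 4 shoot markers the sum was 667102 to 680227 against 620160 to 628546 on the 2 h arrays, and 908720 to 1016940 against 595029 to 664230 on the 5 h arrays. These signals are not centred. Their median log2 ratio of Cy5 over Cy3 across all genes was -0.15 and -0.14 on the 2 h arrays, and -0.13 on each 5 h array. The small difference of the shoot sum at 2 h is therefore not read as a change. Of 2 guard cell markers, both well above background on every array, FAMA was higher at 2 h and 5 h (0.98 ± 0.04 and 0.80 ± 0.04), and KAT1 was lower at 2 h (-0.53 ± 0.05) and did not pass at 5 h (-0.06 ± 0.05). The part of these shifts in the results was not tested. In such bulk RNA, fewer cells of a type and less RNA per cell cannot be told apart.

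After 2 h of salt, 8 of the 10 genes were higher than at 0 h, EIN4 was lower, and EIN2 did not pass the test. After 5 h, 5 were higher (ETR1, ERS2, EIN3, EBF1 and EBF2), 4 were lower (ERS1, ETR2, EIN4 and EIN2), and CTR1 did not pass. The median log2 change of the 10 genes was 0.26 at 2 h and 0.27 at 5 h, while that of all genes was near 0 by construction of the normalization. These counts must be read against a response that covered most of the transcriptome, since limma called 81.8% of 20409 genes at 2 h and 87.7% of 20411 at 5 h, so that 9 of 10 called at each time is close to the background. By direction, 41.4% of all genes were called higher and 40.5% lower at 2 h, and 44.1% and 43.7% at 5 h. With the ratios of Agilent's Feature Extraction software, which are not centred, 38.8% of the called genes were higher at 2 h in place of 50.6%, and 5 of the 10 genes were called higher in place of 8. Changes of at least 2-fold were made by 12.1% of all genes at 2 h and 20.9% at 5 h, and by 1 of the 10 genes (EBF1, at 2 h). No gene of the 10 fell that far, beside 2.33% of all genes at 2 h and 7.28% at 5 h.

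**Figure D1:**
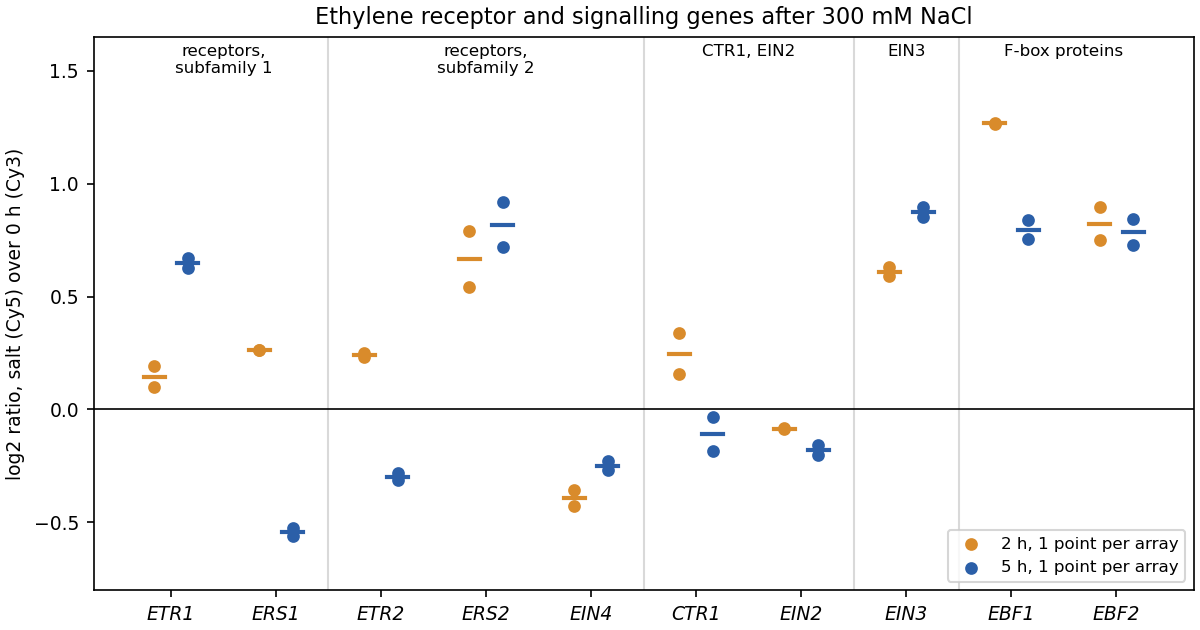
Log2 ratio of salt (Cy5) over 0 h (Cy3) for the 10 genes, 1 point per array, with 2 h in orange, 5 h in blue and the bar at the mean of 2 arrays. On this scale EBF1 stands highest at 2 h (1.27) and EIN3 at 5 h (0.87), and ERS1 and ETR2 lie above 0 at 2 h and below 0 at 5 h.

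Changes below are means of 2 arrays per time on the log2 scale ± limma's moderated SE, which pools the spread of both times, and adjusted p is limma's with Benjamini-Hochberg adjustment over all genes. The ratio was tested against 0, so the error leaves out the spread of the 0 h sample, and the number of arrays limits the precision. Without a dye swap, a dye bias of a gene cannot be told apart from its change against 0 h, but drops out of the 5 h against 2 h comparison. Signals are Feature Extraction's processed intensities and are compared only within an array and probe.

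The subfamily 1 receptors, ETR1 and ERS1, which keep a working histidine kinase domain, were both slightly higher at 2 h and went opposite ways by 5 h. Of all genes, 74.4% changed by at least as much as ETR1 at 2 h and 37.1% at 5 h, beside 56.9% and 44.2% for ERS1. The log2 ratio of ETR1 was 0.10 and 0.19 on the 2 h arrays and 0.62 and 0.67 on the 5 h arrays. Its signal went from 4694 at 0 h to 4662 with salt and from 4506 to 4871 on the 2 h arrays, and from 6446 to 8636 and 5799 to 8229 on the 5 h arrays. Both 5 h arrays thus lay above both 2 h arrays, with no overlap. ETR1 rose by 0.15 ± 0.04 at 2 h (1.11-fold, adjusted p = 0.00905) and by 0.65 ± 0.04 at 5 h (1.57-fold, adjusted p = 1.06e-06). The call at 2 h ended with Feature Extraction ratios (0.05, adjusted p = 0.35), with the mean over its 3 kept probes (0.06, adjusted p = 0.139) and without the second 2 h array (0.10, adjusted p = 0.102). Its second bright probe gave 0.18 at 2 h and 0.47 at 5 h. Another, dim probe, with signals of 18 to 44, gave -0.15 and 0.09.

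ERS1, a receptor that lacks the receiver domain of ETR1, gave log2 ratios of 0.26 on each 2 h array and of -0.56 and -0.53 on the 5 h arrays. Its signal went from 2608 to 2700 and from 2396 to 2452 on the 2 h arrays, and from 3608 to 2229 and 3312 to 2020 on the 5 h arrays. The 2 times lay on opposite sides of 0, far apart compared with the gap between replicate arrays. ERS1 was 1.2-fold higher at 2 h (0.26 ± 0.03, adjusted p = 0.000175) and 1.46-fold lower at 5 h (-0.54 ± 0.03, adjusted p = 1.41e-06). The rise at 2 h was 0.04 with Feature Extraction ratios and no longer passed (adjusted p = 0.216), while the fall at 5 h was -0.70. A second probe gave 0.30 and -0.44.

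The subfamily 2 receptors ETR2, ERS2 and EIN4, whose kinase domains lack residues needed for histidine kinase activity, differed from each other in their changes. Of all genes, 59.9% changed by at least as much as ETR2 at 2 h and 65.7% at 5 h. The shares were 22.2% and 27.7% for ERS2, and 41.9% and 70.6% for EIN4. ETR2 gave 0.23 and 0.25 on the 2 h arrays and -0.28 and -0.31 on the 5 h arrays. Its signal went from 976 to 1064 and from 948 to 1041 on the 2 h arrays, and from 1305 to 974 and 1207 to 908 on the 5 h arrays. ETR2 therefore crossed 0 as ERS1 did, with a rise of 0.24 ± 0.03 at 2 h (adjusted p = 0.000294) and a fall to -0.30 ± 0.03 at 5 h (adjusted p = 6.52e-05). Its second, dimmer probe (signals of 100 to 172) gave 0.50 at 2 h and 0.13 at 5 h. Both were called higher in a limma fit over probes (adjusted p = 3.94e-05 and 0.0288), so the fall below 0 h rested on the brighter probe. The decrease from 2 h to 5 h was present in both, at -0.54 and -0.37. With the mean of both probes the 5 h change was -0.08 (adjusted p = 0.0493).

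ERS2, which like ERS1 lacks a receiver domain, was the receptor furthest above 0 h at both times. Its log2 ratio was 0.79 and 0.54 on the 2 h arrays and 0.92 and 0.72 on the 5 h arrays. The signal went from 852 to 1399 and from 963 to 1273 on the 2 h arrays, and from 1300 to 2274 and 1207 to 1898 on the 5 h arrays. The ranges of the 2 times overlapped, and the gap between replicate arrays was wider than for any other of the 10 genes. ERS2 rose by 0.67 ± 0.07 at 2 h (1.59-fold, adjusted p = 3.64e-05) and by 0.82 ± 0.07 at 5 h (1.76-fold, adjusted p = 7.36e-06). A second kept probe gave 0.46 and 0.60, and the remaining probe was not well above background.

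EIN4 was the receptor that was lower at both times. Its log2 ratio was -0.36 and -0.43 on the 2 h arrays and -0.23 and -0.27 on the 5 h arrays. The signal went from 963 to 654 and from 1032 to 656 on the 2 h arrays, and from 1343 to 1052 and 1310 to 967 on the 5 h arrays. All 4 arrays were below 0, with the 2 h arrays lower than the 5 h arrays. EIN4 fell by 0.39 at 2 h (SE 0.04, 1.31-fold lower, adjusted p = 2.46e-05) and by 0.25 at 5 h (SE 0.04, 1.19-fold lower, adjusted p = 0.000304). With Feature Extraction ratios both values were further below 0, at -0.61 and -0.40. Its other probe was not well above background.

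CTR1, the kinase that the receptors hold active, changed little against 0 h. Its log2 ratio was 0.34 and 0.16 on the 2 h arrays and -0.19 and -0.03 on the 5 h arrays, from a single probe. The signal went from 646 to 737 and from 713 to 766 on the 2 h arrays, and from 965 to 802 and 835 to 765 on the 5 h arrays. Both 2 h arrays lay above 0 and both 5 h arrays below it, and the replicate arrays were further apart than for most of the other genes. CTR1 rose by 0.25 ± 0.05 at 2 h (1.19-fold, adjusted p = 0.0035), and at 5 h its change of -0.11 ± 0.05 did not pass (95% interval -0.24 to 0.02, adjusted p = 0.0936). Both calls depended on the processing: with Feature Extraction ratios the 2 h value was 0.15 (adjusted p = 0.0527) and the 5 h value -0.20 (adjusted p = 0.0213). The 2 h call was also lost without the first 2 h array (0.16, adjusted p = 0.053).

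EIN2, the positive transducer downstream of CTR1, was slightly lower on all 4 arrays. Its log2 ratio was -0.09 and -0.08 on the 2 h arrays and -0.20 and -0.16 on the 5 h arrays. The signal went from 2437 to 1994 and from 2400 to 1950 on the 2 h arrays, and from 3414 to 2612 and 2940 to 2456 on the 5 h arrays. At 2 h the change of -0.09 ± 0.03 did not pass (95% interval -0.17 to -0.00430, adjusted p = 0.0506), and at 5 h EIN2 was 1.13-fold lower (-0.18 ± 0.03, adjusted p = 0.00138). With Feature Extraction ratios the 2 h change was -0.29 and passed (adjusted p = 0.00388). With each array centred on its median in place of loess, the 5 h change was -0.09 and did not pass (adjusted p = 0.0994). Of all genes, 84.6% changed by at least as much at 2 h and 78.3% at 5 h.

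EIN3, the transcription factor at the end of the signalling chain, was higher on every array and increased further with time. Its log2 ratio was 0.59 and 0.63 on the 2 h arrays and 0.85 and 0.90 on the 5 h arrays. The signal went from 8893 to 12146 and from 8746 to 12027 on the 2 h arrays, and from 12183 to 19652 and 11275 to 18514 on the 5 h arrays. The replicate arrays lay close together at both times and the times did not overlap. EIN3 rose by 0.61 ± 0.04 at 2 h (1.53-fold, adjusted p = 1.4e-06) and by 0.87 ± 0.04 at 5 h (1.83-fold, adjusted p = 1e-07), from a single probe. At 5 h its change was the largest of the 10 genes with loess ratios, with 25.2% of all genes changing by at least as much, but ERS2 was further from 0 h with Feature Extraction ratios (0.73 against 0.70), after these were centred (0.86 against 0.84), with the deposited table (0.82 against 0.79) and without the second 5 h array (0.92 against 0.85).

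The F-box genes EBF1 and EBF2, whose products target EIN3 for degradation and which EIN3 itself can induce, were higher at both times. The log2 ratio of EBF1 was 1.26 and 1.27 on the 2 h arrays and 0.75 and 0.84 on the 5 h arrays. Its signal went from 3153 to 6838 and from 3037 to 7943 on the 2 h arrays, and from 4481 to 6369 and 3889 to 6071 on the 5 h arrays. Both 2 h arrays lay above both 5 h arrays. EBF1 rose 2.41-fold at 2 h (1.27 ± 0.04, adjusted p = 2.66e-08), with 8.23% of all genes changing by at least as much, and 1.74-fold at 5 h (0.80 ± 0.04, adjusted p = 2.24e-07). A dim second probe of EBF1, with signals of 46 to 70, gave 0.14 and 0.13 and did not pass at either time, so the EBF1 values rested on 1 probe. With the mean of both probes EBF1 was 0.70 higher at 2 h and 0.46 at 5 h.

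EBF2 gave 0.75 and 0.89 on the 2 h arrays and 0.73 and 0.85 on the 5 h arrays. Its signal went from 7428 to 11619 and from 7596 to 12758 on the 2 h arrays, and from 10416 to 14891 and 9862 to 15067 on the 5 h arrays. The 2 times overlapped. EBF2 rose by 0.82 ± 0.05 at 2 h (1.77-fold, adjusted p = 1.45e-06) and by 0.79 ± 0.05 at 5 h (1.73-fold, adjusted p = 1.16e-06). Both of its probes were bright, and the second gave 0.91 and 0.77.

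**Figure D2:**
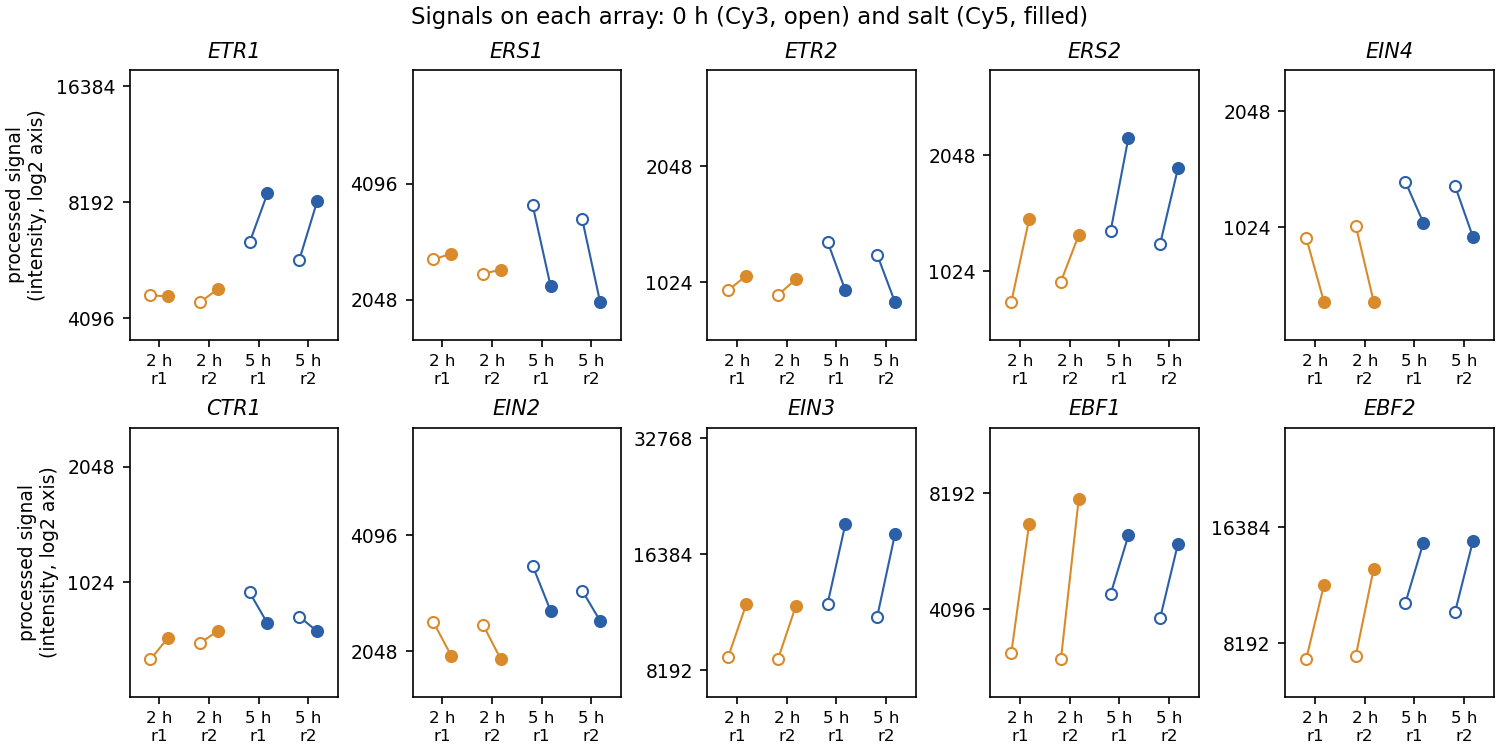
Feature Extraction's processed signal (log2 axis) of each gene's main probe on the 4 arrays, with 0 h in Cy3 as open circles and salt in Cy5 as filled circles joined by a line. Each panel has its own range of levels but the same number of log2 units, and only the slope within an array is comparable: EBF1 climbs most steeply at 2 h, and the lines of ERS1 and ETR2 turn from slightly up at 2 h to down at 5 h.

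Between 2 h and 5 h of salt, 3 of the 10 genes were higher at the later time (ETR1, EIN4 and EIN3), 4 were lower (ERS1, ETR2, CTR1 and EBF1) and 3 did not pass (ERS2, EIN2 and EBF2), where limma called 72.5% of all genes, 33.6% higher and 38.9% lower. No difference of the 10 genes reached 2-fold, beside 7.77% of all genes (4.33% higher and 3.43% lower). The largest shift among them was in ERS1, which was 1.75-fold lower at 5 h than at 2 h (-0.81 ± 0.05, adjusted p = 3.98e-06), and 12.8% of all genes shifted by at least as much. ETR2 was 1.45-fold lower (-0.54 ± 0.05, adjusted p = 3.42e-05), EBF1 1.39-fold lower (-0.47 ± 0.05, adjusted p = 0.000106) and CTR1 1.28-fold lower (-0.36 ± 0.08, adjusted p = 0.00398). The EBF1 difference ranged from -0.24 with the mean of its probes to -0.75 with arrays scaled to each other, and its dim probe alone gave -0.0065 (adjusted p = 0.951). ETR1 was 1.42-fold higher at 5 h than at 2 h (0.50 ± 0.06, adjusted p = 9.89e-05) and EIN3 1.2-fold higher (0.26 ± 0.05, adjusted p = 0.002). The 5 receptor genes thus divided, with ERS1 and ETR2 lower and ETR1 higher at the later time. EIN4 was 1.1-fold higher (0.14 ± 0.05, adjusted p = 0.0387), a call lost when either 5 h array was left out (adjusted p = 0.192 and 0.0867). ERS2 differed by 0.15 (95% interval -0.07 to 0.37), EBF2 by -0.04 (-0.19 to 0.12) and EIN2 by -0.10 (-0.21 to 0.02). The call of EIN3 was lost when the arrays were scaled to each other (0.07, adjusted p = 0.29). The median shift of all genes was -0.03.

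**Figure D3:**
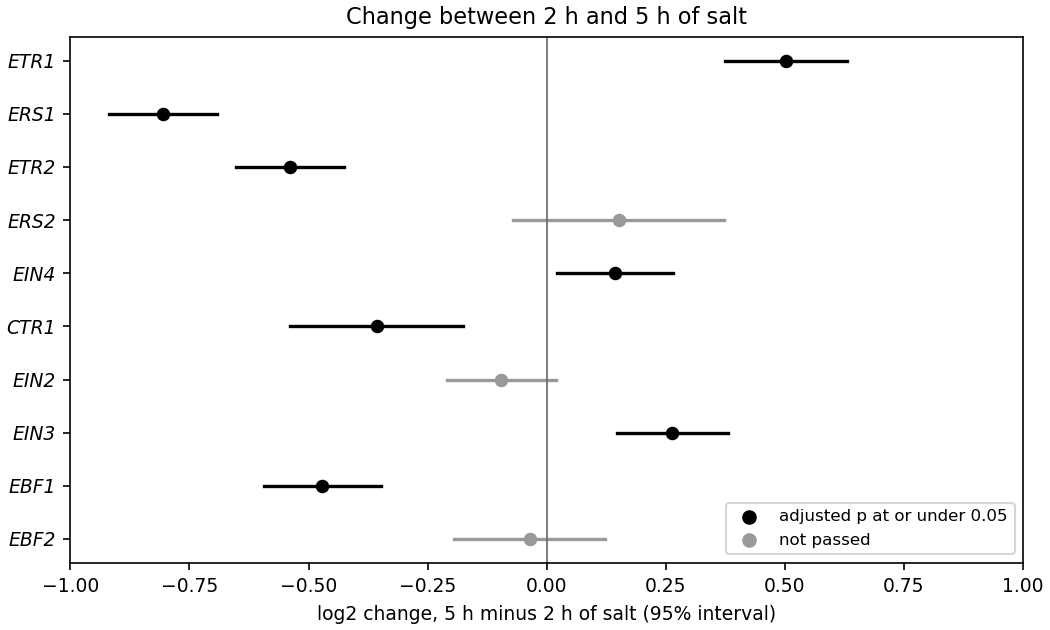
Difference in log2 change between 5 h and 2 h of salt with its 95% interval, black where the adjusted p was at or under 0.05 and grey where it was not. ERS1 (-0.81) and ETR2 (-0.54) lie furthest below 0, ETR1 (0.50) furthest above, and the intervals of ERS2, EIN2 and EBF2 cross 0.

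The 0 h signal of the 10 genes was compared over the 4 arrays. Relative to the median of each array, the Cy3 level spanned from 0.04 (ETR2) to 0.19 (ERS2) log2 units between the lowest and the highest array, beside a median span of 0.13 over all genes. The spans of ERS1 (0.148), CTR1 (0.145) and ERS2 were above that median. With the 0 h RNA counted as 1 control sample, these spans do not measure the spread of 0 h seedlings. With the Cy5 signal alone, without the 0 h channel, the difference between 5 h and 2 h was -0.65 for ERS1, -0.62 for EBF1, -0.54 for ETR2, -0.31 for CTR1, 0.45 for ETR1, 0.28 for EIN3 and 0.25 for EIN4. All 7 had the sign found with the ratios. The Cy5 signal is itself a part of those ratios, and the 7 were picked by their test, so this is not independent support. For ERS2 it was 0.26 and passed (adjusted p = 0.0413).

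Feature Extraction ratios were lower than the loess ratios for all 10 genes against 0 h, and they put the median of all genes at -0.15 at 2 h and -0.13 at 5 h. Relative to the other genes, after the median was set to 0, they gave 0.20 for ETR1, 0.19 for ERS1, 0.27 for ETR2 and 0.29 for CTR1 at 2 h, all of them called. The deposited log2 table gave 0.17, 0.16, 0.25 and 0.26 for these genes. The small increases of ETR1, ERS1 and CTR1 at 2 h were thus calls relative to the rest of the transcriptome. ERS2, EIN3, EBF1 and EBF2 were called higher, and EIN4 lower, at both times on all of these scales.

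**Figure D4:**
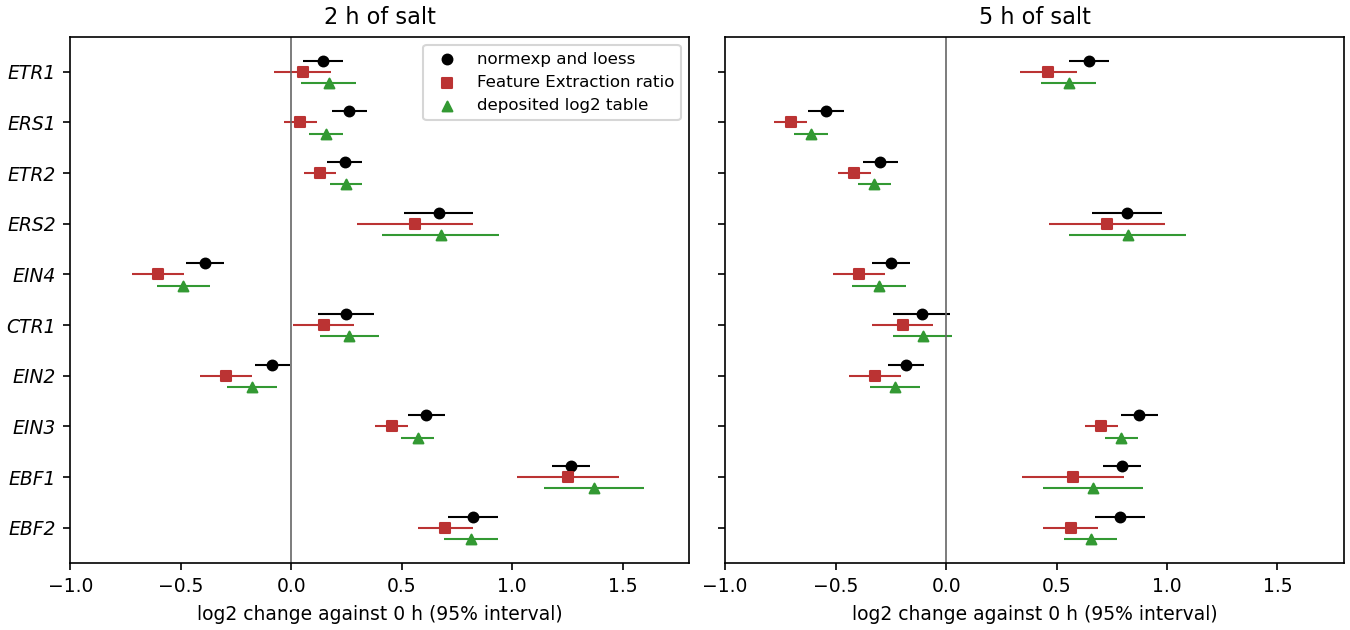
Log2 change against 0 h with its 95% interval at 2 h (left) and 5 h (right) from normexp and loess (black circles), the Feature Extraction ratio (red squares) and the deposited log2 table (green triangles). The Feature Extraction value lies left of the black one for each gene, and for ETR1 and ERS1 at 2 h its interval crosses 0.

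Among 35 other genes of the pathway in 5 lists, 33 were tested. Receptor helpers act on receptor function or ethylene sensitivity, and 4 of the 7 were higher and 1 lower at 2 h (median log2 change 0.15), then 3 higher and 4 lower at 5 h (-0.10). These counts, like those of the next lists, stand beside 41.4% of all genes called higher and 40.5% lower at 2 h, and 44.1% and 43.7% at 5 h, and the 5 h shares of the helpers are near that background. ARGOS, which dampens ethylene sensitivity, was 0.64 ± 0.03 higher at 2 h and 0.48 below 0 h at 5 h (-0.48 ± 0.03, adjusted p = 9.07e-07 and 3.07e-06). OSR1, of the same family, rose by 0.54 ± 0.04 at 2 h (adjusted p = 7.63e-06). At 5 h CPR5, a nuclear membrane protein reported to act with ETR1, rose by 1.03 ± 0.03 (adjusted p = 3.18e-08), and RAN1, the copper transporter that supplies the receptors with their metal cofactor, rose by 0.63 ± 0.03 (adjusted p = 5.45e-07). At 2 h the small change of RAN1 (0.15) turned to -0.03 with Feature Extraction ratios, and those of RTH and ARL, which did not pass, also changed sign with the scaling.

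The phosphorelay partners carry signals from histidine kinases, and 3 of the 5 were higher at 2 h (median 0.13) and 3 higher and 1 lower at 5 h (0.11), beside 41.4% and 44.1% of all genes called higher. ARR2, a response regulator linked to ETR1, rose by 0.53 ± 0.03 at 2 h and by 1.86 ± 0.03 at 5 h (adjusted p = 2.56e-06 and 1.27e-09). Among the phosphotransfer proteins, AHP1 rose by 0.36 ± 0.04 at 2 h (adjusted p = 0.000123) and AHP5 fell to -0.49 ± 0.04 at 5 h (adjusted p = 7.18e-06). The values of AHP3 and AHP5 at 2 h and of AHP1, AHP2 and AHP3 at 5 h were small and changed sign with the scaling.

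Of the 7 genes listed under turnover of EIN2 and EIN3, 3 were higher and 3 lower at 2 h (median -0.03), about the share of all genes. At 5 h, 3 were higher and 2 lower (0.03). The list joins genes that need not act in the same direction, so its counts give no direction of turnover. XRN4 was among the 3 higher at each time (0.22 ± 0.04 at 2 h and 0.48 ± 0.04 at 5 h). CUL1 and ASK1, subunits of the ubiquitin ligase in which EBF1 and EBF2 work, were the furthest from 0 h. CUL1 rose by 0.54 ± 0.04 and 0.68 ± 0.04 (adjusted p = 4.53e-06 and 7.17e-07), and ASK1 by 0.34 ± 0.05 and 0.57 ± 0.05 (adjusted p = 0.000362 and 1.2e-05), at 2 h and 5 h. At 5 h the values of ASK2 and ETP2, which did not pass, changed sign with the scaling.

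Of 5 EIN3-like factors, 3 were tested, since EIL2 and AT5G65100 were not well above background. EIL3, known for the response to sulfur limitation, rose by 0.56 ± 0.04 at 2 h and 1.42 ± 0.04 at 5 h (adjusted p = 2.28e-06 and 6.36e-09). EIL1, the closest relative of EIN3, gave 0.05 ± 0.04 at 2 h (adjusted p = 0.269; -0.09 with Feature Extraction ratios) and fell by 0.34 at 5 h (SE 0.04, adjusted p = 4.04e-05), where EIN3 was 0.87 higher. AT5G10120 was well above background at 0 h on all 4 arrays and with salt on none. It was at least 3.42-fold lower at 2 h and at least 3.64-fold lower at 5 h. The level with salt was taken as the dimmest signal well above background, or the probe's own where higher. Because AT5G10120 was kept through its 0 h signal alone, it could hardly be found higher, so no test result is given.

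The ethylene response genes, many of them known as targets downstream of EIN3, numbered 11. Of these, ESE1 and PDF1.2 were well above background at 0 h on 1 array of the 4 each and were tested only because of their signal with salt, so they are left out of the counts. Among the other 9, 7 were higher and 1 lower at 2 h (median 0.83), and 5 were higher and 2 lower at 5 h (median 0.23), beside 41.4% of all genes called higher at 2 h and 44.1% at 5 h. At least 2-fold higher were 4 of the 9 at each time, beside 9.75% and 13.6% of all genes, and 2 were at least 2-fold lower at 5 h, beside 7.28%. ERF1, a transcription factor that EIN3 binds directly, had signals of 150 to 161 at 0 h against 2105 to 2206 with salt on the 2 h arrays, and 196 to 207 against 3571 to 4087 on the 5 h arrays. ERF1 rose by 3.36 ± 0.04 at 2 h and 3.69 ± 0.04 at 5 h (adjusted p = 1.92e-10 and 1.08e-10). EDF3 rose by 2.69 ± 0.04 and 2.34 ± 0.04 (adjusted p = 1.06e-09 and 1.32e-09). PDF1.2, a defensin that needs jasmonate as well as ethylene signalling, was at least 1.17-fold higher at 5 h. Kept for their signal with salt, PDF1.2 and ESE1 could hardly be found lower, so no test result is given for them. Both genes that were at least 2-fold lower at 5 h had smaller changes at 2 h: ESE3, a transcription factor gene of the ERF family, was at -0.12 ± 0.03 and then -1.52 ± 0.03 (adjusted p = 0.013 and 3.76e-09), and the chitin-binding protein gene HEL at 0.33 ± 0.04 and then -1.18 ± 0.04 (adjusted p = 6.49e-05 and 2.26e-08). ESE1 was at least 3.56-fold higher at 5 h. The rise of EDF2 at 5 h (0.23) turned to -0.07 with Feature Extraction ratios.

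Between 2 h and 5 h, 2 receptor helpers were higher and 3 lower, 2 phosphorelay partners higher and 2 lower, 3 turnover genes higher and 0 lower, 1 EIN3-like factor higher and 1 lower, and, of the 9 response genes measured at 0 h, 3 higher and 5 lower, beside 33.6% of all genes called higher and 38.9% lower. ARGOS had the furthest shift of the receptor helpers (-1.12 ± 0.05, adjusted p = 8.71e-07), and ARR2 that of the phosphorelay partners (1.33 ± 0.05, adjusted p = 3.82e-07). All 3 response genes that were higher turned negative when the arrays were scaled to each other: ERF1 from 0.33 ± 0.05 to -0.62, EDF1 from 0.33 ± 0.05 to -0.034 and EDF4 from 0.26 ± 0.05 to -0.057.

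**Figure D5:**
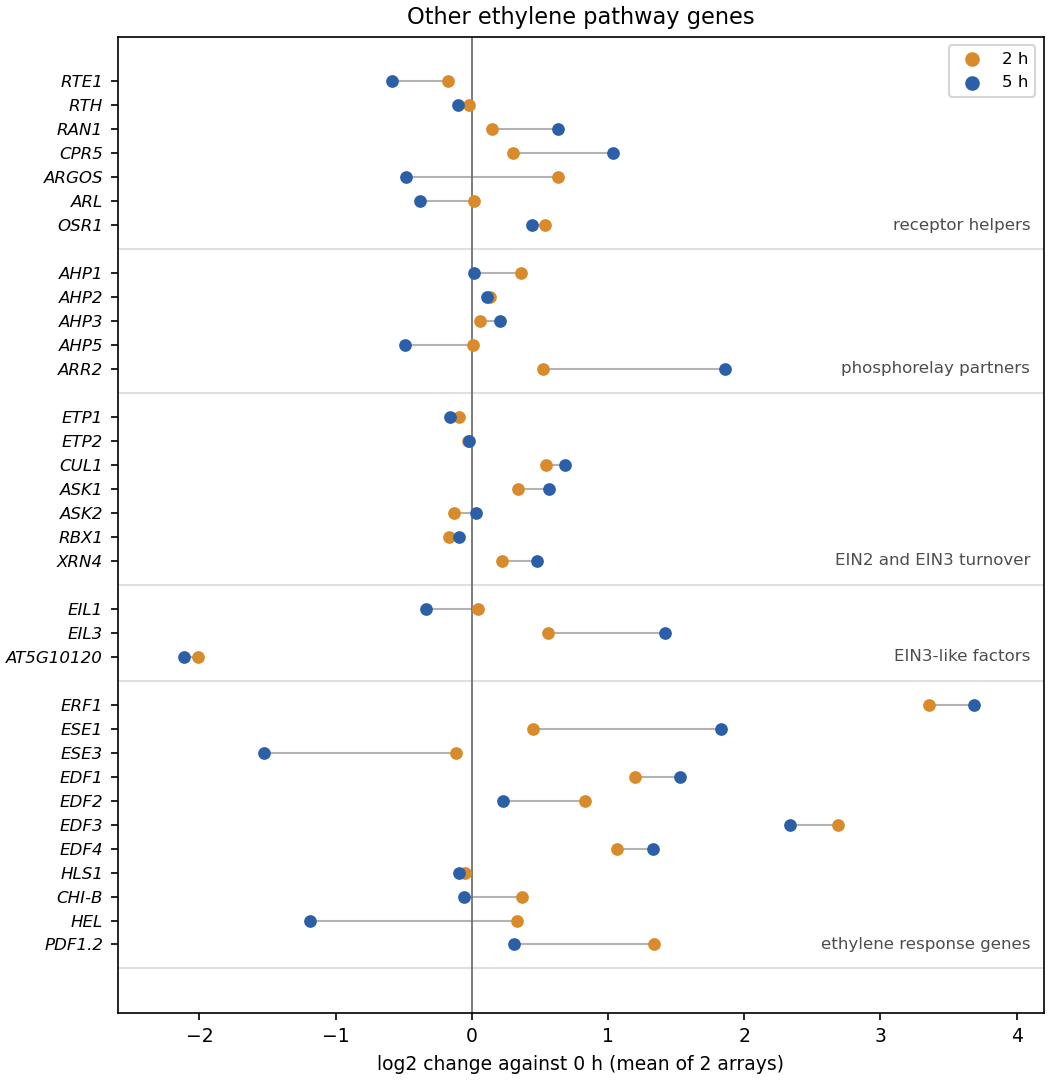
Log2 change against 0 h (mean of 2 arrays) at 2 h (orange) and 5 h (blue) of the 33 other pathway genes tested, by list. ERF1 and EDF3 lie furthest to the right at both times, ARR2 and EIL3 move right by 5 h, and the fitted values of AT5G10120, whose salt signal was not well above background, lie near -2.

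Genes with ratios most like those of EBF1 and EIN3 were sought by Euclidean distance over the 4 arrays, as a description. Nearest to EBF1 were PAP1 (AT3G16500) at 0.0624 log2 units, AT2G46520 at 0.0792 and PDC2 at 0.0808. PAP1 was 1.27 higher at 2 h and 0.75 at 5 h, beside 1.27 and 0.80 for EBF1. Nearest to EIN3 were XBAT33 at 0.0374, Kin3 at 0.0533 and TAG1 at 0.0536, and XBAT33 was 0.60 and 0.87 higher, beside 0.61 and 0.87 for EIN3.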

How the data were processed

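RNA of salt-treated (Cy5) and untreated (Cy3) seedlings was compared on 4 Agilent 2-colour arrays, on 1 slide. The deposited array files hold spot and background intensity per dye, and the authors' processed intensity came from Feature Extraction (11.5.1.1 per the file headers, 9.3.2.1 per the submitters' processing notes). Per the file headers, each spot also has the log10 of processed Cy5 over Cy3. The deposited series table holds log2 ratios that followed each array's processed ratio (r from 0.99976 to 0.99993 across probes) in the same direction, with a median over genes of -0.029, -0.025, -0.036 and -0.049. The basis of its centring is not stated.

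Median intensities were corrected by normexp (offset 50) and normalized by loess within arrays with limma 3.58.1 in R 4.3.3. Controls were dropped, as were 14 to 19 outlier spots on each array, and replicate spots were averaged. Of 43603 probes, 34348 matched 1 gene through a RefSeq accession in a TAIR10.1 gene table, used for names only because the arrays follow an earlier TAIR10 release. The filter left 32529 probes that exceeded background clearly in Cy3 on 2 or more arrays, or in Cy5 on each array of the same time, and a gene was represented by its brightest one. Cross-hybridization among the receptor genes was not tested. Each time was tested against 0 and against the other time in 1 limma fit over all 4 arrays (Benjamini-Hochberg, 0.05), which was tested on simulated data. Of the 20411 genes, 2 lacked a ratio on the 2 h arrays and were not tested there.

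All 10 genes are named, with the 2 furthest from 0 h in each pathway list at each time and the 3 genes nearest to EBF1 and EIN3. Marker lists are given by their counts and sums. Other genes were named after their values were seen where their sign changed with the scaling or they differed between times. The members and lists were chosen with earlier results of these data known. Alternatives were other background corrections, normalizations, filters, probe rules and left-out arrays, and 2 chosen after seeing the data: the Cy5 signal alone, and Feature Extraction ratios with the median of all genes at 0.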

Additional observations from a re-analysis of the deposited data

Results flagged for a closer look

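For 7 of the 10 genes the effect of salt differed between 2 h and 5 h by limma's test of the difference itself. The log2 change at 5 h minus that at 2 h was 0.50 for ETR1, -0.81 for ERS1, -0.54 for ETR2, 0.14 for EIN4, -0.36 for CTR1, 0.26 for EIN3 and -0.47 for EBF1. The adjusted p lay between 3.98e-06 (ERS1) and 0.0387 (EIN4), in a comparison where 72.5% of all genes were called. In each of the 7 genes, both arrays of 1 time lay above both arrays of the other. This largely follows from their choice by a test on the same arrays and adds no support. The share of all genes with such a separation was not counted. ERS1 and ETR2 were called on opposite sides of 0 h at the 2 times with loess ratios of their main probes. With Feature Extraction ratios the ERS1 rise at 2 h did not pass (0.04, adjusted p = 0.216). The dimmer ETR2 probe was called higher at 5 h in a limma fit over probes (0.13, adjusted p = 0.0288). CTR1 was called at 2 h and not at 5 h.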

How the results depend on the processing

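Of 460 values of the 10 genes under alternatives, 427 kept their direction and side of the threshold, 13 lost and 17 gained a call, and 3 reversed. The reversals were in 5 h against 2 h and in genes that had not passed: ERS2 at -0.046 when the arrays were scaled to each other, and EBF2, which ranged from -0.11 to 0.037 with 1 array left out, at 0.037 without the second 2 h array and 0.023 without the first 5 h array. At 2 h, 5 genes were called higher with Feature Extraction ratios, 7 with the mean over probes or without either 2 h array, and 8 under the other 11 alternatives. In the same comparison, 2 were lower in place of 1 with Feature Extraction ratios, centred or not, the deposited table, no background correction, a normexp offset of 16, arrays scaled to each other, bright probes only and the mean over probes, the added gene being EIN2. EIN4 in 5 h against 2 h was not called with the deposited table (adjusted p = 0.0594), without a filter (0.07) or without the second 2 h array (0.139). EBF2 there was -0.25 and called with scaled arrays (adjusted p = 0.014). The deviations of samples with the same replicate number correlated at 0.059 across genes. This value cannot show whether such samples shared a harvest or batch, which the labels do not state. With a replicate block, 16811 genes were called at 2 h, 17982 at 5 h and 15019 between the times, and ERS2 passed in the last (adjusted p = 0.0332), making 8 of the 10 genes in place of 7. A slide or scan block could not be fitted, since all arrays shared 1 slide and 1 scan. With 2 arrays per time and 1 control sample, the spread of 0 h seedlings was not measured.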
